A study of Rattus norvegicus with 9 samples.

Results

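The leukocyte beta-2 integrins are represented here by 4 genes, Itgb2, Itgal, Itgam and Itgax, out of 14557 genes that had a probe set with a single gene symbol. They were chosen by symbol from the probe annotation, and all 4 were found, each with 1 probe set (17757621 for Itgb2, 17620796 for Itgal, 17621084 for Itgam and 17621115 for Itgax). RNA was measured on 9 arrays. BMDM, bone marrow-derived macrophages, were grown from the marrow of Dark Agouti rats in CSF1 for 7 days (n = 3). CSF1-Fc livers came from neonatal Sprague-Dawley rats injected subcutaneously with 1 µg/g of porcine CSF1-Fc, the macrophage growth factor CSF1 fused to an immunoglobulin Fc region, on each of 5 days and had their livers taken on day 6 (n = 4). PBS livers came from pups given PBS in the same way (n = 2), and the pups of both liver groups were born to PBS-injected dams and raised by foster dams. BMDM therefore differed from the livers in strain and culture as well as in cell type, and these cannot be told apart. The labels do not say whether arrays of a group came from separate litters or cultures, so the p-values measure the spread between these arrays.

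A beta-2 integrin is a pair of chains on the surface of white blood cells. The shared beta chain, encoded by Itgb2 and known as CD18, joins an alpha chain, and without it the alpha chains do not reach the cell surface. Itgal encodes alpha L (CD11a), whose pair is LFA-1, the ICAM receptor of lymphocytes and most other leukocytes. Itgam encodes alpha M (CD11b), whose pair is Mac-1 or complement receptor 3 of monocytes, macrophages and neutrophils, and Itgax encodes alpha X (CD11c), found on dendritic cells and on some tissue macrophages. Resident macrophages of the liver, the Kupffer cells, are described as low in CD11b in mice. The remaining partner of the beta chain is alpha D, encoded by Itgad.

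All values are log2 expression after robust multi-array averaging (RMA), in which 1 unit is a doubling, and probes differ in brightness, so each gene is compared with itself across groups. A gene is said to have risen or fallen where the adjusted p from limma, corrected over all 36685 probe sets, was under 0.05. Array medians lay between 3.75 and 3.87. PBS liver 2 stood apart, with correlations of 0.951 to 0.962 with the other livers, against 0.971 to 0.985 among those, so the results of the 4 chains are also given without it. Other named liver genes and counts are given without it where that changed the call or the count. Without PBS liver 1 more of all probe sets rose and more fell than with both, so a higher count there is not particular to a list. The values hold no detection call. A gene below its array's median over all probe sets on every array of a group is called dim there, and its difference from a brighter group is given only as a lower bound, with the dim gene raised to the median of each array. Marker genes were set against the labels. Albumin (Alb) lay at 12.70 to 12.90 in CSF1-Fc livers, and at 12.74 and 12.82 in PBS livers, and the hepatocyte list averaged 3.75 to 4.25 on the BMDM arrays. The 6 measured pan-macrophage markers averaged 10.09 on each BMDM array.

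The 4 chains followed 3 different patterns over the groups. Itgb2 stood in the order BMDM, CSF1-Fc liver, PBS liver, with no overlap at either step. Itgal was highest in CSF1-Fc liver, and its levels in BMDM and PBS liver lay close together. Itgam and Itgax were high in BMDM, and their levels in CSF1-Fc and PBS livers overlapped.

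**Figure D1:**
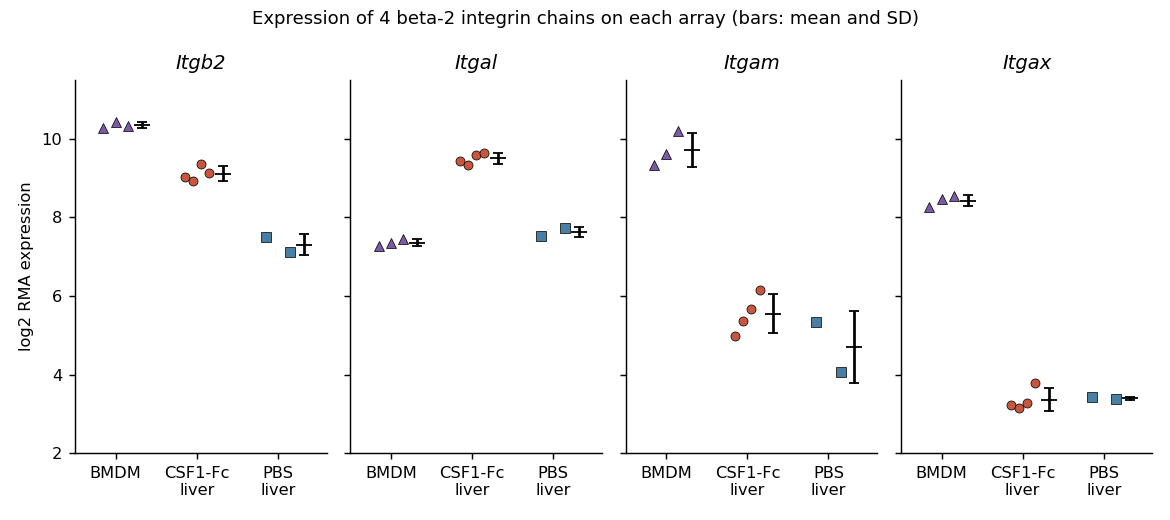
Log2 RMA expression (vertical axis) of the 4 beta-2 integrin chains on each of 9 arrays, with the mean and SD beside each group (BMDM triangles, n = 3; CSF1-Fc liver circles, n = 4; PBS liver squares, n = 2). Itgal is the only one of the 4 with its highest mean, 9.50, in CSF1-Fc liver, whereas Itgam and Itgax are separated from both liver groups only in BMDM.

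The first question was which chains the CSF1-Fc injections moved in whole liver. Itgb2 and Itgal rose, and Itgam and Itgax did not pass the test. These 2 of 4 are set against 1.22% of all probe sets that rose and 0.254% that fell. In whole liver, more cells of a type and more RNA per cell cannot be told apart.

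Itgb2 had 9.02, 8.92, 9.36 and 9.12 in CSF1-Fc livers, against 7.50 and 7.11 in PBS livers. Every treated liver lay above both PBS livers. The means were 9.11 ± 0.19 (SD, n = 4) in CSF1-Fc livers and 7.30 ± 0.27 (SD, n = 2) in PBS livers, a difference of 1.80 (SE 0.18, 95% interval 1.36 to 2.25) or 3.49-fold, with an adjusted p of 0.0145.

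Itgal, the alpha chain of LFA-1, had 9.44, 9.33, 9.59 and 9.65 in CSF1-Fc livers, against 7.54 and 7.72 in PBS livers. The groups again did not overlap, and the 4 treated livers lay within a narrow band. The means were 9.50 ± 0.14 (SD, n = 4) in CSF1-Fc livers and 7.63 ± 0.13 (SD, n = 2) in PBS livers, a difference of 1.87 (SE 0.15, 95% interval 1.52 to 2.23) or 3.66-fold, with an adjusted p of 0.0128.

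Both calls needed all 4 treated livers. Without any one of them no probe set at all passed in limma, although 4068 to 4266 had an unadjusted p under 0.05, and the adjusted p was 0.0597 to 0.0804 for Itgb2 and 0.0544 to 0.0720 for Itgal. Without PBS liver 2 the difference was 1.61 for Itgb2 (adjusted p = 0.0553) and 1.96 for Itgal (adjusted p = 0.0363), so that of the 4 chains Itgal alone passed. Without PBS liver 1 the differences were 1.99 for Itgb2 and 1.78 for Itgal, and both passed.

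Itgam, the alpha chain of Mac-1, had 4.99, 5.37, 5.67 and 6.16 in CSF1-Fc livers, against 5.35 and 4.07 in PBS livers. PBS liver 1 lay inside the range of the treated livers, and PBS liver 2 below it. The difference of means was 0.84 (SE 0.45, 95% interval -0.24 to 1.93, adjusted p = 0.481), and it was 1.48 without PBS liver 1 (adjusted p = 0.124) and 0.20 without PBS liver 2 (adjusted p = 0.910). The interval spans no difference and a rise as large as that of Itgb2.

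Itgax had 3.23, 3.17, 3.27 and 3.80 in CSF1-Fc livers, against 3.43 and 3.37 in PBS livers. It was dim in both liver groups, so a difference between them may have been out of reach. Treated liver 4 was the highest and the other three lay below both PBS livers. The difference of means was -0.03 (SE 0.21, 95% interval -0.53 to 0.47, adjusted p = 0.961), which is also the median difference of all probe sets. It was -0.06 without PBS liver 2 (adjusted p = 0.960). Itgad, the remaining alpha chain, was dim too and lay between 3.06 and 3.33 in CSF1-Fc livers, against 3.21 and 3.61 in PBS livers (adjusted p = 0.659).

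**Figure D2:**
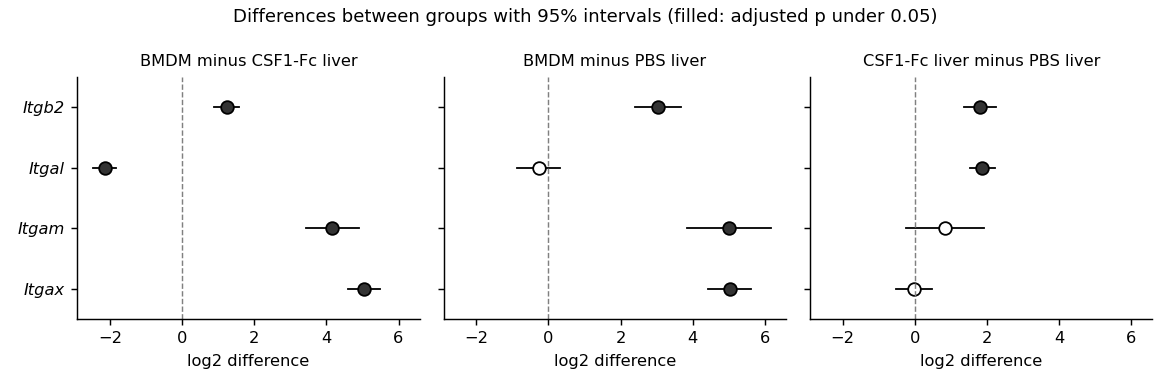
Log2 differences between groups (horizontal axis) for the 4 chains, with 95% intervals from limma and filled points where the adjusted p was under 0.05. Between CSF1-Fc and PBS livers Itgb2 (1.80) and Itgal (1.87) are filled, and Itgal is the only chain below 0 in BMDM minus CSF1-Fc liver (-2.15). Itgax is plotted as measured, at 5.05 in BMDM minus CSF1-Fc liver and 5.02 in BMDM minus PBS liver. It was dim in the livers, and its lower bounds in these comparisons are 4.59 and 4.61.

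The chains were then compared within each array, since a difference between 2 genes on 1 array does not change with the brightness of that array. Of the 6 pairs of chains, none could pass between CSF1-Fc and PBS livers, because an exact permutation of 4 against 2 arrays cannot give a p below 0.0667. The difference Itgb2 minus Itgal was -0.40 ± 0.13 (SD, n = 4) in CSF1-Fc livers and -0.33 ± 0.40 (SD, n = 2) in PBS livers, a change of -0.07 (exact permutation p = 0.800, two-sided). Pairs with Itgax are not read between the livers, since Itgax was dim in both groups.

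Markers of the cells that carry these chains were read beside them. Between CSF1-Fc and PBS livers 1.22% of all probe sets rose and 0.254% fell. Of the 6 measured pan-macrophage markers 5 rose and the sixth, Aif1, had 1.68 (adjusted p = 0.140). Aif1 had 0.92 without PBS liver 1 (adjusted p = 0.0795), and it passed without PBS liver 2 (2.44, adjusted p = 0.0386). The mean of the 6 markers on an array was 9.93 to 10.01 in CSF1-Fc livers, against 7.64 and 8.17 in PBS livers. The receptor for CSF1, Csf1r, rose by 1.82 (adjusted p = 0.0128), and the F4/80 gene Adgre1 rose by 2.09 (adjusted p = 0.0135), though not without PBS liver 2 (adjusted p = 0.0617). Of 8 Kupffer cell markers 5 rose, among them the scavenger receptor Marco by 1.68 (adjusted p = 0.0141) and the complement receptor Vsig4 by 1.94 (adjusted p = 0.0149). Without PBS liver 1, and likewise without PBS liver 2, the count was 6.

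Set against the mean of the 6 pan-macrophage markers on the same array, Itgb2 changed by -0.26 (exact permutation p = 0.667) and Itgal by -0.19 (exact permutation p = 0.267) between CSF1-Fc and PBS livers. Itgam changed by -1.22 (exact permutation p = 0.133). The value of Itgax is not read, since with Itgax dim in both groups it follows the markers. After adjustment over the 4 chains no p was under 0.267. None could pass, because the permutation of 4 against 2 arrays cannot give a p below 0.0667. Without PBS liver 1 these changes were 0.19 for Itgb2, -0.02 for Itgal and -0.32 for Itgam, and without PBS liver 2 they were -0.72, -0.37 and -2.13 in the same order. The part of the macrophage markers in the rise of Itgb2 and Itgal was not tested beyond this.

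**Figure D3:**
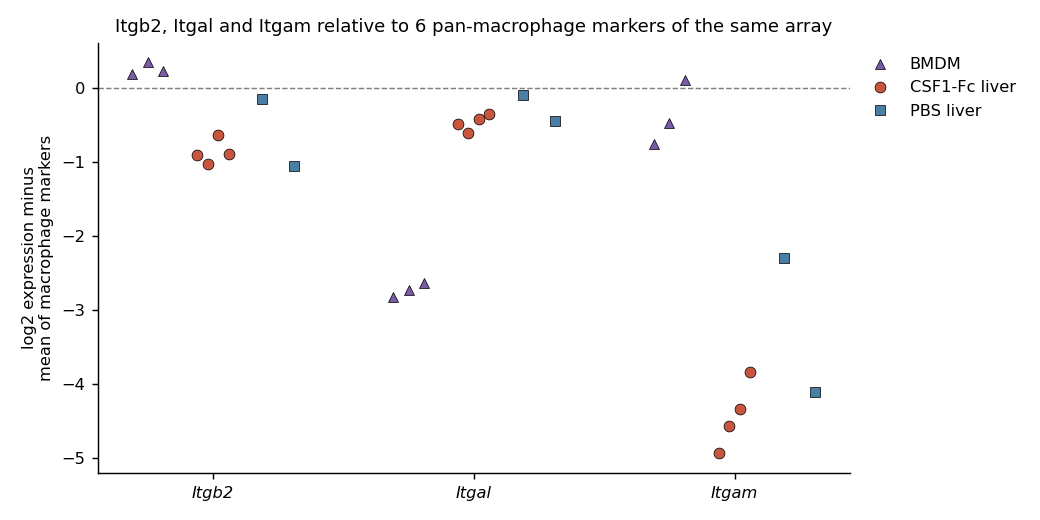
Log2 expression of Itgb2, Itgal and Itgam minus the mean of 6 pan-macrophage markers of the same array (vertical axis), per array. Heights of different genes depend on probe brightness and are not compared. Within a gene, Itgal is lower in BMDM (-2.83 to -2.64) than in CSF1-Fc livers (-0.61 to -0.36).

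LFA-1 is also abundant on lymphocytes, so their markers were read beside Itgal. Between the liver groups 1.22% of all probe sets rose and 0.254% fell. Of 10 T cell markers Cd4 alone rose, by 2.24 (adjusted p = 0.0128), and Cd4 is also carried by rat monocytes and macrophages. Cd3e, a chain of the T cell receptor complex, lay at 3.10 to 3.45 in CSF1-Fc livers, against 2.67 and 2.83 in PBS livers (adjusted p = 0.162). Cd3d lay at 2.93 to 3.06 in CSF1-Fc livers, against 2.93 and 3.36 in PBS livers, and both were dim in each liver group. The T cell list averaged 4.66 to 4.74 in CSF1-Fc livers, against 4.27 and 4.50 in PBS livers. Without Cd4 the other 9 markers averaged 3.93 to 4.06 in CSF1-Fc livers, against 3.76 and 4.05 in PBS livers, and the groups overlapped. Of 7 NK cell markers the activating receptor Klrk1 rose by 1.86 (adjusted p = 0.0174, and 0.0723 without PBS liver 2), while the perforin gene Prf1 had -0.18 and the receptor Ncr1, dim in both groups, -0.06, neither passing. The NK count was 2 without PBS liver 1 and 0 without PBS liver 2. The NK cell list averaged 4.35 to 4.69 in CSF1-Fc livers, against 4.30 and 4.36 in PBS livers. The part of lymphocytes in the rise of Itgal was not tested.

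Mac-1 is carried by neutrophils and monocytes, whose markers were read beside Itgam. Of all 36685 probe sets 5030 had an unadjusted p under 0.05 in limma between CSF1-Fc and PBS livers, in either direction. None of 10 neutrophil markers passed in limma, although 6 were lower and 1 was higher by the unadjusted p under 0.05. Their median difference was -1.40. Csf3r passed as higher without PBS liver 1 (1.71, adjusted p = 0.0301), and without PBS liver 2 Mmp8 passed as lower (-2.66, adjusted p = 0.0436). The list averaged 5.07 to 5.96 in CSF1-Fc livers, against 6.71 and 6.91 in PBS livers, with no overlap. None of 8 monocyte markers passed, 4 were higher at an unadjusted p under 0.05, and the list averaged 5.65 to 6.14 in CSF1-Fc livers, against 5.41 and 5.60 in PBS livers. The monocyte marker F13a1 passed without PBS liver 1 (1.19, adjusted p = 0.0446). No dendritic cell marker of 5 passed, with 0 at an unadjusted p under 0.05. The part of these cells in the level of Itgam was not tested.

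The second question was how the chains of cultured macrophages differ from those of liver. In BMDM minus CSF1-Fc liver all 4 chains passed, 3 higher and 1 lower, where 19.9% of all probe sets were higher and 17.5% lower. These arrays of CSF1-Fc liver are the same as in the comparison with PBS liver. The median difference of all probe sets was 0.14, or 0.02 after quantile normalization. The markers of other cells differed widely in the same comparison. All 8 Kupffer cell markers were lower in BMDM, while of the 6 pan-macrophage markers 1 was higher (Cd14) and 1 lower (Csf1r). The T cell list averaged 3.92 to 4.18 in BMDM, against 4.66 to 4.74 in CSF1-Fc livers, the NK cell list 3.08 to 3.35 in BMDM, against 4.35 to 4.69 in CSF1-Fc livers, and the neutrophil list 3.86 to 4.44 in BMDM, against 5.07 to 5.96 in CSF1-Fc livers. Their part in the differences below was not tested.

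Itgax had 8.26, 8.46 and 8.53 in BMDM, against 3.17 to 3.80 in CSF1-Fc livers. The means were 8.42 in BMDM and 3.37 in CSF1-Fc livers, where Itgax was dim. It was at least 24.1-fold higher in BMDM, with an adjusted p of 1.26e-06 from limma on the measured values.

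Itgam had 9.34, 9.61 and 10.19 in BMDM, against 4.99 to 6.16 in CSF1-Fc livers. All 3 BMDM arrays lay above every treated liver. The difference was 4.16 (SE 0.32, 95% interval 3.43 to 4.90) or 17.9-fold, with an adjusted p of 3.64e-05.

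Itgb2 had 10.28, 10.43 and 10.32 in BMDM, against 8.92 to 9.36 in CSF1-Fc livers. The shared chain thus differed by less than its partners alpha M and alpha X, at 1.24 (SE 0.15) or 2.36-fold, with an adjusted p of 0.000437.

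Itgal had 7.27, 7.35 and 7.45 in BMDM, against 9.33 to 9.65 in CSF1-Fc livers. It ran against the other 3, with a difference of -2.15 (SE 0.14, 95% interval -2.47 to -1.82) and an adjusted p of 1.66e-05. Relative to the pan-macrophage markers of the same array Itgal was also lower in BMDM (difference -2.26), while Itgb2 (1.12) and Itgam (4.05) were higher, each with the smallest p of the exact permutation, 0.0286.

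Within arrays 5 of the 6 pairs of chains changed by different amounts between BMDM and CSF1-Fc liver. The difference Itgal minus Itgam averaged -2.36 ± 0.34 in BMDM (SD, n = 3), against 3.95 ± 0.40 in CSF1-Fc livers (SD, n = 4), a change of -6.31. Itgb2 minus Itgal changed by 3.38 and Itgb2 minus Itgam by -2.93. The other two pairs involve Itgax, and with Itgax raised to the array median their changes were -3.36 for Itgb2 minus Itgax and -6.74 for Itgal minus Itgax, each a bound on its size. For these 5 the exact permutation p was 0.0286, the smallest that 3 against 4 arrays can give (adjusted p = 0.0343). The sixth pair, Itgam minus Itgax, did not pass (exact permutation p = 0.0571, and 0.229 with Itgax raised to the array median).

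Against PBS liver 3 of the 4 chains were higher in BMDM and none passed as lower, where 10.2% of all probe sets were higher and 10.4% lower. Itgb2 was higher by 3.04 (SE 0.26, 8.22-fold, adjusted p = 0.000971) and Itgam by 5.01 (SE 0.47, 32.1-fold, adjusted p = 0.00133). Itgax, dim in PBS livers, was at least 24.4-fold higher (means 8.42 in BMDM and 3.40 in PBS livers, adjusted p = 0.000239 from limma on the measured values). Itgal had a difference of -0.27 (SE 0.24, 95% interval -0.87 to 0.32, adjusted p = 0.519), and every BMDM array lay below both PBS livers. Without PBS liver 2 the differences were 2.85 for Itgb2, 4.37 for Itgam (20.6-fold) and -0.18 for Itgal, and without PBS liver 1 that of Itgam was 5.65 (50.1-fold). Itgb2, Itgam and Itgax passed in both fits. For differences within arrays the exact permutation of 3 against 2 arrays cannot give a p below 0.1.

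Itgam, Itgax and Itgad are neighbours. In the RefSeq annotation of assembly GRCr8 they follow each other on chromosome 1 between Trim72 and Cox6a2, whereas Itgal lies elsewhere on chromosome 1 between Sephs2 and Znf768, and Itgb2 on chromosome 20 between Pttg1ip and Slx9. Itgad and Trim72 were dim in all 3 groups. Itgad lay at 2.88 to 3.18 in BMDM, against 3.06 to 3.33 in CSF1-Fc livers (adjusted p = 0.404), and neither Trim72 (difference 0.32, adjusted p = 0.348) nor Cox6a2 (0.41, adjusted p = 0.286) passed. RefSeq lists Itgax among the older names of Itgad, and the 2 genes had a probe set each. Whether probes of one alpha chain also bind transcripts of another was not tested.

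The sequences upstream of Itgam and Itgax are shown because these adjacent genes were both higher in BMDM than in either liver group. Each is the 250 bases before the RefSeq start in GRCr8, on the plus strand, at chr1:192089342-192089591 for Itgam and chr1:192149799-192150048 for Itgax. Capitals mark matches, on either strand, to the core of PU.1, a transcription factor of myeloid cells (GAGGAA), to the Sp1 GC box (GGGCGG) or to the AP-1 site (TGANTCA).
Itgam: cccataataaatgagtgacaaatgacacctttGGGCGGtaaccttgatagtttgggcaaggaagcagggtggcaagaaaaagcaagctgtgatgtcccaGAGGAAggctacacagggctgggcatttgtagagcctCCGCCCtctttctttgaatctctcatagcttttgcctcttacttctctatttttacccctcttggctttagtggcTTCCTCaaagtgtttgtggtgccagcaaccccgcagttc
Itgax: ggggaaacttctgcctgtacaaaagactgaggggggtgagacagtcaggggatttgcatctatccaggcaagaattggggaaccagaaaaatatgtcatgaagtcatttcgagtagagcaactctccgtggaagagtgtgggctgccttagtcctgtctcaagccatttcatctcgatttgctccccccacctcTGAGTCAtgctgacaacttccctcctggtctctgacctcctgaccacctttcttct
Itgam held the PU.1 core 151 to 146 bases before the start and, reversed, 39 to 34 bases before it, and the GC box 218 to 213 and, reversed, 114 to 109 bases before it. Itgax held an AP-1 match 56 to 50 bases before the start, and no match to the other motifs. Of 27457 RefSeq promoters of this length, 23.2% held the PU.1 core, 32.4% the GC box and 6.36% the AP-1 letters, and a match describes letters only.

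The genes most like each chain over the 9 arrays are given as a description. The arrays fall into 3 groups, so each r follows the group means, and no p is given. Itgb2 was most like Mvp, the major vault protein (r = 0.994), and Elmo1, an activator of the GTPase Rac in phagocytosis (r = 0.994), followed by Clec2gl1, St14 and Cyfip1 (0.988 to 0.989). Elmo1 was at 8.08 to 8.33 in BMDM, 7.00 to 7.21 in CSF1-Fc livers, and 5.65 and 5.26 in PBS livers, which is the same order of groups. Itgal was most like Colgalt1, a collagen galactosyltransferase (r = 0.994), then Cited2, Eeig2, Hpgds and Ubxn2b (0.982 to 0.990). Hpgds, the prostaglandin D synthase of hematopoietic cells, was at 7.02 to 7.42 in BMDM, 9.23 to 9.82 in CSF1-Fc livers, and 7.33 and 7.35 in PBS livers. Itgam was most like Ro60, an RNA-binding protein (r = 0.996), then Nup54, Hspa4, Pcyt1a and Mettl14. Itgax was most like Atp6v0d2, a subunit of the vacuolar proton pump known from osteoclasts and macrophages (r = 0.998), then Oxct1, Rrm2l1, Map6 and Zscan26. Atp6v0d2 was at 9.81 to 10.21 in BMDM, 2.32 to 2.49 in CSF1-Fc livers, and 2.37 and 2.58 in PBS livers. Among the chains r was 0.973 for Itgam with Itgax, 0.856 for Itgb2 with Itgam, 0.770 for Itgb2 with Itgax, -0.103 for Itgb2 with Itgal, -0.566 for Itgal with Itgam and -0.698 for Itgal with Itgax.

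Integrins bind more strongly after signals from inside the cell unfold them. In this inside-out step the GTPase Rap1 and its adaptors bring talin and kindlin-3 to the tail of the beta chain. Over all probe sets 1.22% rose in CSF1-Fc liver and 0.254% fell. Of 10 measured genes of the inside-out step 4 rose there and 0 fell, with a median difference of 0.81, against -0.03 over all probe sets. This was 6 without PBS liver 1, 1 without PBS liver 2 and 0 without any one of the treated livers. Fermt3, which encodes kindlin-3, had 8.11, 8.29, 8.22 and 8.30 in CSF1-Fc livers, against 6.74 and 7.00 in PBS livers, and rose by 1.36 (SE 0.14, adjusted p = 0.0142). The adaptor Fyb1 rose by 2.11 (SE 0.31, adjusted p = 0.0400), Skap2 by 1.10 (SE 0.14, adjusted p = 0.0284) and Rap1b by 0.89 (SE 0.12, adjusted p = 0.0298). Talin, Tln1, had 0.73 (adjusted p = 0.166), the Rap1 effector Apbb1ip 1.60 (adjusted p = 0.0565) and Rasgrp2, the exchange factor for Rap1, 0.65 (adjusted p = 0.225). Without PBS liver 1 Tln1 (1.00, adjusted p = 0.0461) and Apbb1ip (1.90, adjusted p = 0.0448) passed. Without PBS liver 2 Fermt3 alone of the 10 passed (1.49, adjusted p = 0.0363).

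Between BMDM and CSF1-Fc liver 5 of the 10 were higher and 2 lower, with a median of 0.20. Over all probe sets 19.9% were higher and 17.5% lower. Tln1, among the 5, passed in 4 of the 7 fits that each left out 1 array. Apbb1ip was higher by 1.52 (adjusted p = 0.00206), Skap2 by 1.01 (adjusted p = 0.00113) and Fermt3 by 0.65 (adjusted p = 0.0123). Rasgrp2, at 3.83, 4.10 and 3.44 in BMDM and 5.46 to 5.98 in CSF1-Fc livers, was lower (difference -1.96, adjusted p = 0.000201). The 2 that were lower were Rasgrp2 and Sharpin, an inhibitor of integrin activation (-1.48, adjusted p = 0.00494).

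After a ligand is bound, Src family kinases, Syk and adaptors with activation motifs carry the outside-in signal to the actin skeleton. Over all probe sets 1.22% rose in CSF1-Fc liver and 0.254% fell. Of 13 measured genes of the outside-in step 7 rose there and 0 fell, with a median of 1.32. All 13 differences were above 0, and the count of 7 became 0 without any one of the treated livers. Vav1, an exchange factor for Rac, had 8.28, 8.34, 8.66 and 8.40 in CSF1-Fc livers, against 6.01 and 6.46 in PBS livers, and rose by 2.19 (SE 0.18, adjusted p = 0.0128). Nckap1l, the blood cell subunit of the actin-regulating WAVE complex, rose by 2.04 (SE 0.14, adjusted p = 0.0126), the kinase Lyn by 1.50 (SE 0.18, adjusted p = 0.0247) and the actin regulator Was by 1.46 (SE 0.19, adjusted p = 0.0276). Pik3cd, a catalytic subunit of phosphoinositide 3-kinase, rose by 1.43 (SE 0.14, adjusted p = 0.0142), and Lcp2, the adaptor SLP-76, by 1.32 (SE 0.13, adjusted p = 0.0135). Syk was the seventh, at 1.23 (SE 0.13, adjusted p = 0.0149). The actin-binding coronin Coro1a (0.02, adjusted p = 0.981) and Vav3 (0.04, adjusted p = 0.936) did not pass. Without PBS liver 2 the count was again 7, with Vav1, Nckap1l, Pik3cd, Lcp2 and Syk among them, whereas Lyn (adjusted p = 0.0786) and Was (adjusted p = 0.0621) did not pass.

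In BMDM minus CSF1-Fc liver 6 of these 13 were higher and 0 lower, with a median of 0.30. Over all probe sets 19.9% were higher and 17.5% lower. Of the 6, Fcer1g (adjusted p = 0.0484) and Wipf1 (adjusted p = 0.0491) each passed in 1 of the 7 fits that left out 1 array. Coro1a, at 8.94, 8.80 and 8.82 in BMDM and 6.10 to 6.99 in CSF1-Fc livers, was higher by 2.17 (adjusted p = 0.000186), Vav3 by 1.45 (adjusted p = 0.00543) and Syk by 1.05 (adjusted p = 0.00203). Against PBS liver 10.2% of all probe sets were higher in BMDM and 10.4% lower. Of the 13 genes 12 were higher there and 0 lower, with a median of 1.67. That count was 5 without PBS liver 1, 6 without PBS liver 2 and 7 without BMDM array 2, with 0 lower each time.

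**Figure D4:**
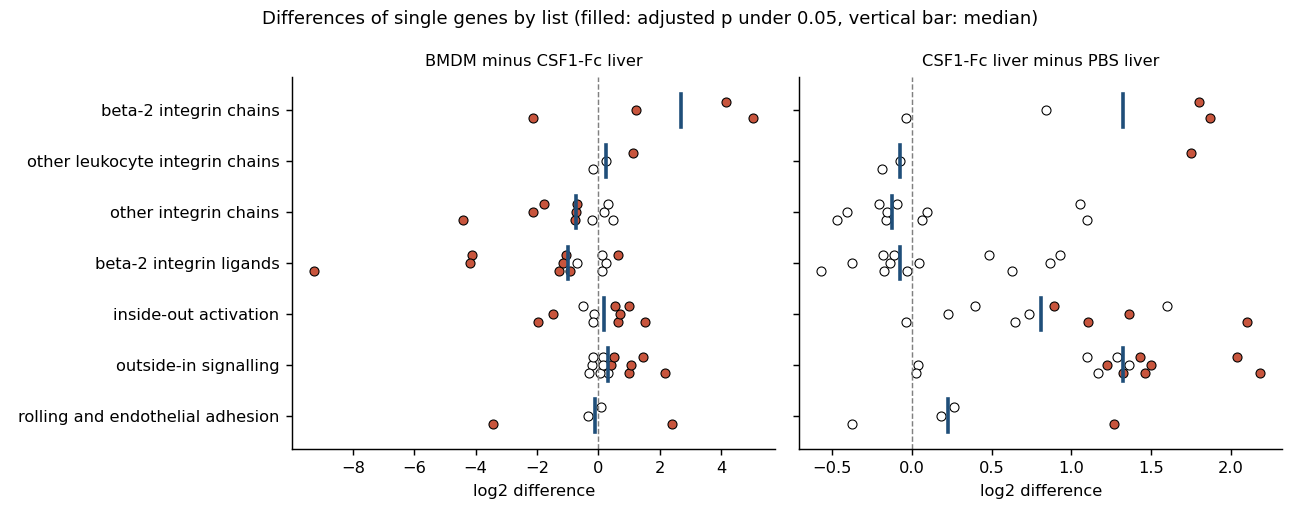
Log2 differences of single genes (horizontal axis) in the beta-2 integrin chains and 6 lists around them, with filled points where the adjusted p was under 0.05 and a vertical bar at each list's median. Between CSF1-Fc and PBS livers the medians are 0.81 for inside-out activation, 1.32 for outside-in signalling and -0.07 for the ligands. Genes dim in one group are plotted as measured, among them the ligand Fgg, a fibrinogen chain, at the far left between BMDM and CSF1-Fc livers.

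The ligands of these integrins lie on endothelium and other cells or in plasma. None of 12 measured ligands passed between CSF1-Fc and PBS livers in limma, and their median was -0.07. At an unadjusted p under 0.05, 3 were higher and 1 was lower, where 5030 of all 36685 probe sets were under it in either direction. Icam1, the principal ligand of LFA-1 and also of Mac-1, had 7.98, 7.76, 8.11 and 7.34 in CSF1-Fc livers, against 7.01 and 6.73 in PBS livers. All 4 treated livers were above both PBS livers, and the difference of 0.93 (SE 0.24) had an adjusted p of 0.158. Icam2, another LFA-1 ligand of endothelium, had 0.87 (SE 0.19, adjusted p = 0.107). C3, the complement protein whose cleaved form iC3b is bound by Mac-1, had -0.11 (adjusted p = 0.843), and Fgg had -0.03 (adjusted p = 0.938).

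Between BMDM and CSF1-Fc liver 19.9% of all probe sets were higher and 17.5% lower. Of the 12 ligands 1 was higher in BMDM and 7 were lower, with a median of -0.99. Hepatocytes make plasma proteins, and C3 (-4.19, adjusted p = 8.23e-07) and Fgg (at least 256-fold lower, adjusted p = 7.67e-08) were among the lower ones. Fgg was dim in BMDM, with a mean of 2.51, against 11.79 in CSF1-Fc livers. All 7 measured hepatocyte markers were lower too. The junctional protein F11r, also dim in BMDM, was at least 13.9-fold lower (means 3.45 in BMDM and 7.59 in CSF1-Fc livers, adjusted p = 3.44e-06), and lower as well was Icam1 (-0.93, adjusted p = 0.0134). Icam2 was the higher one, by 0.63 (adjusted p = 0.0460), and it passed in 2 of the 7 fits that each left out 1 array.

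Of the other integrin chains of leukocytes, Itga4, the alpha 4 chain of VLA-4, rose in CSF1-Fc liver. It had 6.90, 6.99, 7.61 and 7.32 in CSF1-Fc livers, against 5.65 and 5.26 in PBS livers, a difference of 1.75 (SE 0.24, adjusted p = 0.0338) without overlap. It lost its call without PBS liver 2 (adjusted p = 0.113) or without any one of the treated livers. In BMDM Itga4 was higher than in CSF1-Fc liver by 1.14 (adjusted p = 0.00852), so its groups stood in the same order as those of Itgb2. Itgad, dim in all 3 groups, and Itgb7, dim in both liver groups, were the other measured genes of this list. They passed in none of the 3 comparisons.

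None of 10 integrin chains that are not specific to leukocytes passed between CSF1-Fc and PBS livers in limma. At an unadjusted p under 0.05, 2 were higher and 1 was lower, where 5030 of all 36685 probe sets were under it in either direction. Itgav, the alpha V chain, had 1.10 (adjusted p = 0.221), and Itga9 had 1.06 (adjusted p = 0.0661, and 0.0484 without PBS liver 1). In BMDM 6 of the 10 were lower than in CSF1-Fc liver and 0 higher. Over all probe sets 17.5% were lower and 19.9% higher. Of the 6, Itgb3 passed in 3 and Itga11 in 1 of the 7 fits that each left out 1 array. Itga9, at 3.57, 3.54 and 4.40 in BMDM and 8.03 to 8.55 in CSF1-Fc livers, was lower (difference -4.40, adjusted p = 8.15e-06), as was Itga1, a collagen-binding chain (-2.12, adjusted p = 0.000390). On BMDM arrays 1 and 2 Itga9 lay below the array median, so the size of its difference is uncertain.

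A rise was called for 1.22% of all probe sets between CSF1-Fc and PBS livers. Of 4 measured genes of rolling and endothelial adhesion, the steps before and beside integrin binding, Selplg rose in CSF1-Fc liver. This gene, which encodes the P-selectin ligand PSGL-1, rose by 1.27 (SE 0.17, adjusted p = 0.0312), and its call was lost without PBS liver 2 (adjusted p = 0.0859) or without any one of the treated livers. Vcam1, the ligand of VLA-4, had 0.18 (adjusted p = 0.793), and in BMDM it was lower than in CSF1-Fc liver (difference -3.43, adjusted p = 7.65e-06). It had 3.61, 3.63 and 3.87 in BMDM. On BMDM arrays 1 and 2 it lay below the array median, so the size of that difference is uncertain. Spn, the sialophorin CD43, had -0.38 in CSF1-Fc liver (adjusted p = 0.401) and was higher in BMDM than in CSF1-Fc liver by 2.41 (adjusted p = 3.43e-05).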

How the data were processed

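Affymetrix Rat Gene 2.1 ST arrays carried RNA of 6 neonatal rat livers and of 3 BMDM cultures. Liver RNA was prepared by the authors with TRIzol followed by RNeasy purification, RNA with an integrity number above 7 was taken, quality was checked in Affymetrix Expression Console, and RMA was run in R with the Transcription Analysis Console. These deposited log2 values entered the tests without further normalization. Joint normalization of the 9 arrays is not stated in the sources used here. Some probe sets held the same value on BMDM and liver arrays, such as Was at 7.37951 on BMDM array 1 and CSF1-Fc livers 1 and 3. Itgb7 was at 3.64128 on BMDM array 3 and CSF1-Fc livers 1, 2 and 3. Whether the 9 arrays were normalized jointly was not tested, and without it differences between BMDM and liver carry that step as well.

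A single gene symbol was given for 14824 of 36685 probe sets, several for 829 and none for 21032. A gene with more than 1 probe set was represented by whichever was brightest on average in the livers. Pairs of groups were each fitted alone in limma 3.58.1 (lmFit and eBayes, R 4.3.3), and p-values were adjusted by Benjamini-Hochberg over every probe set, with 0.05 as the threshold. Prior and residual degrees of freedom were 2.23 and 4 for the livers, 2.56 and 5 for BMDM with CSF1-Fc liver, and 3.00 and 3 for BMDM with PBS liver. Differences within arrays were compared by exact two-sided permutation of the arrays, adjusted over 6 pairs or 4 genes. The fits were tested on simulated data, and no 2 arrays held identical values. Precision is limited by the number of arrays, most of all by the 2 PBS livers.

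The 4 genes and the lists around them were chosen with earlier results of these data known. Of 161 genes in 16 lists, 120 were matched to a probe set. Genes named from a list are those that passed between CSF1-Fc and PBS livers (at most 6, by size), or otherwise its highest in the livers, and for each member the 5 genes of highest Pearson correlation over the arrays. Other named genes were chosen after their values were seen. Alternatives were 1 fit with all arrays, removal of dim probe sets, restriction to probe sets with 1 symbol, a trend and robust prior, quantile normalization, centring on the array median or on the hepatocyte list, a block for the replicate number, and fits without each array. Raising dim probe sets to the array median and leaving Cd4 out of the T cell list were chosen after seeing the data. Promoter sequences are from RefSeq (GRCr8), whose table held 2 of the 4 genes, Itgam and Itgax.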

Additional observations from a re-analysis of the deposited data

Results flagged for a closer look

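Itgax stood out in the CSF1-Fc livers. Its value of 3.80 in CSF1-Fc liver 4 lay far above the other 3 treated livers, which were at 3.17 to 3.27, and the gap made up 0.832 of the whole range. All 4 values lay below the medians of their arrays. The other 3 chains had no such array among the 4 treated livers. A gap of this size appears by chance in about 1 group of 20, and 4 groups were examined. Without CSF1-Fc liver 4 the difference from PBS liver was -0.18 (limma adjusted p = 0.671).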

How the results depend on the processing

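Of 159 results for single chains under the alternatives, 145 kept their direction and their side of the threshold, 11 lost the call and 3 changed sign. The 11 lost calls were Itgb2 and Itgal between CSF1-Fc and PBS livers, with the replicate number as a block or without single arrays. The number of chains that passed in this comparison was 2, and it ranged from 0 to 2 without single arrays. With the replicate number as a block it was 0, with differences of 1.67 for Itgb2 and 1.76 for Itgal (adjusted p = 0.543 for both). Under that block 0 probe sets passed in limma, and 2692 had an unadjusted p under 0.05. The labels do not say whether equal numbers pair the arrays. The following correlations cannot exclude a shared litter or batch, and the deviations of the 2 PBS livers mirror each other. Deviations of same-numbered arrays from their group means correlated at 0.0213 and 0.181 between CSF1-Fc and PBS livers, -0.0467 to -0.0172 between BMDM and CSF1-Fc livers, and 0.00440 and -0.115 between BMDM and PBS livers. In both comparisons with BMDM the counts of 4 and 3 chains were the same under every alternative run, the block included.

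The sign changes were in differences that had not passed. Itgax between CSF1-Fc and PBS livers was 0.17 after centring on the hepatocyte list, which moved the median of all probe sets to 0.17 as well, and -0.18 to 0.032 without single arrays. Without single arrays, Itgb2 minus Itgal between CSF1-Fc and PBS livers ranged from -0.35 to 0.21, Itgb2 relative to the pan-macrophage markers from -0.72 to 0.19, and Itgam minus Itgax between BMDM and PBS livers from -0.63 to 0.60. Between BMDM and CSF1-Fc livers the 5 pairs of chains and the 4 chains relative to macrophage markers that passed both became 0 without any single array, because fewer arrays allow too few permutations. The filter on dim probe sets left Itgax out between CSF1-Fc and PBS livers, so it has no value there. Averaging over the probe sets of a gene was not run, since each chain had 1. Of 480 list counts under the alternatives 413 stayed within 1.5 times and 67 did not. For outside-in signalling between CSF1-Fc and PBS livers the count of 7 became 11 with the dim filter, with probe sets of 1 symbol and with hepatocyte centring, and 0 with the block. With the block all 6 lists had 0 in that comparison, and between BMDM and CSF1-Fc livers 2 genes of inside-out activation were higher and 3 other integrin chains lower, against 5 and 6 without it.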

Other observations

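Of the genes that flank Itgb2 and Itgal, Pttg1ip was lower in BMDM than in CSF1-Fc liver (difference -1.51, adjusted p = 0.000285), and so was Sephs2 (-1.81, adjusted p = 0.000228), whereas Itgb2 was higher and Itgal lower.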
